A study of Capra hircus with 6 samples.

Results

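The AP-1 and EGR transcription factors examined here were 10 genes chosen by name among the 15944 genes listed in the count table: FOS, FOSB, FOSL1 and FOSL2 of the FOS family, JUN, JUNB and JUND of the JUN family, and EGR1, EGR2 and EGR3 of the EGR family. All 10 were listed, and all 10 were among the 12588 genes with enough counts to be tested. They were measured by RNA-seq in dermal papilla cells (DPCs) that had grown out of secondary hair follicles, the follicles that make cashmere, from the skin of adult, 3-year-old Albas goats, Capra hircus. The cells were wild-type primary cultures that had been passaged before use. The control group (3 libraries) received complete culture medium with fetal bovine serum, and the ATRA-treated group (3 libraries) received the same medium with all-trans retinoic acid (ATRA), a derivative of vitamin A and the ligand of the retinoic acid receptors, at 100 µM for 24 h. The cells came from 3 individual animals, and the sources used here do not tie a replicate number to an animal.

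AP-1 is a dimer of basic leucine zipper proteins. FOS proteins bind DNA only after pairing with a JUN protein, whereas JUN proteins can also pair with one another, so that the mixture of family members present in a cell decides which dimers can form. EGR proteins are zinc finger factors that bind GC-rich sites. FOS, JUN and EGR1 are textbook immediate early genes, which serum and growth factors switch on within minutes through MAP kinases, SRF and its ETS-type partners, and whose short-lived transcripts normally fall again soon after. In dermal mesenchyme AP-1 is known for its control of matrix, protease and growth genes. Ligand-bound retinoic acid receptors are known to restrain AP-1 activity, and EGR2 is also known as Krox20, a marker of cells that build the hair shaft.

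The control libraries held 36887160 to 38012771 counts and the ATRA libraries 35532339 to 36870939. Levels are given as normalized CPM (CPM after TMM scaling), with mean ± SD over 3 libraries. TMM factors averaged 0.847 for the control libraries and 1.18 for the ATRA libraries. Dividing by library size only, without these factors, therefore moved the median gene's log₂FC from 0.0376 up to 0.52, and every log₂FC given here would rise by nearly the same amount. RARB, the receptor gene that ATRA is best known to induce, had 2, 2 and 1 counts in the control libraries and 108, 91 and 82 counts in the ATRA libraries, so the labels and this gene pointed the same way. The 12 dermal papilla markers summed to 27505 to 30126 normalized CPM in the control libraries and to 1768 to 1816 in the ATRA libraries, with VIM as the main contributor. Among the defining markers, ACTA2 had 200752 to 220329 counts in the control libraries and 332 to 397 in the ATRA libraries, while PROM1, ALPL and CORIN had at most 1 count in any library. Of the 7 papilla markers tested, 6 were lower at an adjusted p under 0.05 and SOX18 was not called. LEF1 was among those lower, from 16.1 ± 1.63 to 11.1 ± 0.978 normalized CPM (log₂FC −0.54, SE 0.103, edgeR adjusted p = 0.000108). Its unscaled counts were 468 to 550 in the control libraries and 430 to 517 in the ATRA libraries. Few unscaled counts were found for SOX2 (0 to 5 and 9 to 16) and NOG (2 to 8 and 9 to 13). Neither gene was tested, so no direction is given for them. Of 7 keratinocyte markers, 6 had count data (not KRT15) and summed to 3.11 to 4.95 in the control libraries and 5.40 to 6.02 in the ATRA libraries. KRT10 was the main contributor (79 to 138 and 231 to 252 counts), while KRT14 went from 10 to 20 counts to 0 to 3. The 5 endothelial markers summed to 0.903 to 1.24 and 6.19 to 9.16, with PECAM1 at 0 counts in every control library and at 206 to 340 counts in the ATRA libraries. TEK had 14 to 23 and 39 to 57 counts, VWF 5 to 12 and 8 to 12, and KDR 5 to 10 and 0 to 2. Of 5 leukocyte markers, 3 had count data (not PTPRC or LYZ) and summed to 2.69 to 5.86 and 10.7 to 12.0. CD68 was the main contributor (84 to 176 and 437 to 509 counts). CD3E (0 to 1 and 2 to 5) and CSF1R (3 to 5 and 3 to 7) had few counts. Of 5 melanocyte markers, 2 had count data (not MLANA, DCT or TYR) and summed to 3.80 to 4.30 and 1.97 to 2.34. CDH1, DSP and CDH5 were at 0 in every control library and KRT5 was at 0 in every ATRA library. The part of these markers in the results that follow was not tested. In bulk RNA a lower level can come from fewer cells of a type or from less RNA per cell, and these cannot be told apart.

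At an adjusted p under 0.05, 5 of the 10 genes were higher and 4 were lower in the ATRA-treated group, whereas scaling by library size only gave 6 higher and 3 lower. The higher genes were FOS, FOSB, JUNB, JUND and EGR3, and the lower genes were FOSL1, FOSL2, JUN and EGR2. EGR1 did not pass. Across all tested genes, 79.7% passed the same threshold, 40.9% as higher and 38.7% as lower, so that a share of 9 in 10 lay near that of the whole transcriptome. By the study's rule of |log₂FC| above 1 with an unadjusted p under 0.05, 3 genes were higher (JUNB, JUND and EGR3) and 3 were lower (FOSL2, JUN and EGR2), against 31.0% of all tested genes in either direction, 13.7% higher and 17.3% lower. With library size only, FOS and FOSB also passed that rule, which made 5 higher and 3 lower, while over all tested genes the split went from 1730 higher and 2174 lower to 3390 and 1471. The control and ATRA libraries did not overlap for 5 higher and 4 lower genes, and 80.1% of all tested genes showed no overlap in one direction or the other. The median log₂FC of the 10 genes was 0.26, beside 0.0376 for all tested genes, and was 0.16 without control replicate 2 and 0.73 with library size only. Each of the 3 families held genes called in both directions.

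**Figure D1:**
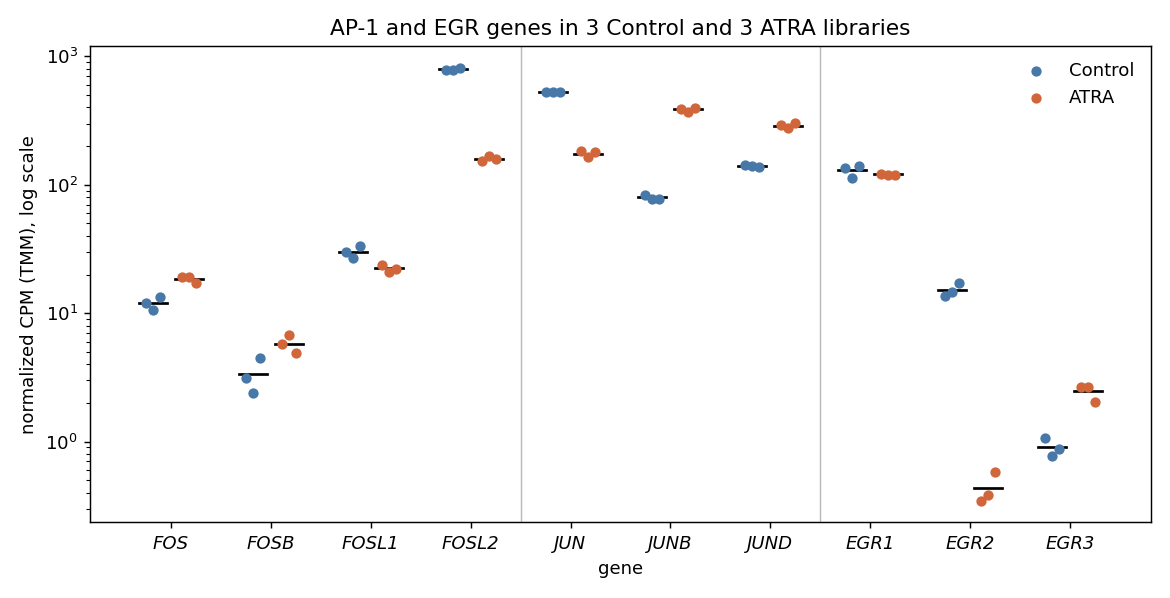
Normalized CPM (TMM, log scale) of the 10 AP-1 and EGR genes in each of the 3 control and 3 ATRA libraries, with a bar at each group mean. JUNB moved from 79.6 to 386 and EGR2 from 15.1 to 0.437, while the EGR1 points of the groups overlap and FOSL1, lower here, was not lower when scaled by library size only.

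The JUN family exchanged its leading member. JUN, the partner that FOS proteins were first found with and a strong activator on its own, had normalized CPM of 529.7, 532 and 532 in the control libraries and of 182, 164 and 179 in the ATRA libraries. The control libraries lay almost at one level, and all 3 ATRA libraries were far below it. The mean fell from 531 ± 1.20 to 175 ± 9.56, a log₂FC of −1.60 (SE 0.0582, adjusted p = 1.11e-14), or 3.03-fold lower. JUNB, a weaker activator that often opposes JUN, had 83.8, 77.2 and 77.9 in the control libraries and 389, 370.5 and 398 in the ATRA libraries. Every ATRA library stood far above every control library. Its mean rose from 79.6 ± 3.60 to 386 ± 14.1, a log₂FC of 2.28 (SE 0.0591, adjusted p = 7.15e-17), or 4.85-fold. JUND, the member known for steady expression in resting cells, had 143, 139 and 137 in the control libraries and 290.5, 275 and 302 in the ATRA libraries. Again the groups did not overlap. The mean rose from 139.7 ± 3.15 to 289 ± 13.6, a log₂FC of 1.05 (SE 0.0560, adjusted p = 3.92e-12), or 2.07-fold.

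These JUN family directions held under every scaling tried. With library size only, the setting that moved them most, the log₂FC was −1.12 for JUN, 2.76 for JUNB and 1.53 for JUND. The family summed to 750.4 ± 5.40 normalized CPM without ATRA and to 850.1 ± 36.1 with it, a ratio of 1.13 by TMM and of 1.58 by library size only. A two-sided exact permutation test, run on the TMM sums only, gave p = 0.1, which cannot go lower with 3 against 3 libraries. The total, not corrected for transcript length, thus changed by a smaller factor than any of its 3 genes under the same scaling.

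A share within one library does not depend on how libraries are scaled against each other. JUN held 70.8% ± 0.659 of the JUN family's counts without ATRA and 20.6% ± 0.466 with it. JUNB went from 10.6% ± 0.405 to 45.4% ± 0.323, and JUND from 18.6% ± 0.289 to 34.0% ± 0.313. The shares of the groups did not overlap for any of the 3 genes, and each exact permutation test gave p = 0.1, also after Benjamini-Hochberg adjustment over the 10 shares tested in the 3 families. Within a library, the log₂ ratio of JUNB counts to JUN counts moved from −2.74 ± 0.0677 to 1.14 ± 0.0407, a change of 3.88, and that of JUND to JUN from −1.93 ± 0.0353 to 0.72 ± 0.0430, a change of 2.65. Both ratios thus crossed from below to above equal counts.

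JUN, JUNB and JUND have no introns, so their span in the ARS1.2 reference table (2693, 1843 and 1850 bases) could serve as transcript length and their levels could be set against each other per kilobase. In the control group JUN stood at 197 ± 0.444 normalized CPM per kb, JUND at 75.5 ± 1.70 and JUNB at 43.2 ± 1.95. In the ATRA-treated group the order was reversed, with JUNB at 209 ± 7.63, JUND at 156 ± 7.33 and JUN at 65.0 ± 3.55. Neighbours in both orders differed by more than the SD of either. Per kb, JUN made up 62.4% of the family without ATRA and 15.1% with it, JUNB 13.7% and 48.6%, and JUND 23.9% and 36.3%. The family's summed level per kb was 316 ± 3.12 without ATRA and 431 ± 18.1 with it, a larger relative rise than that of the uncorrected sum.

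**Figure D2:**
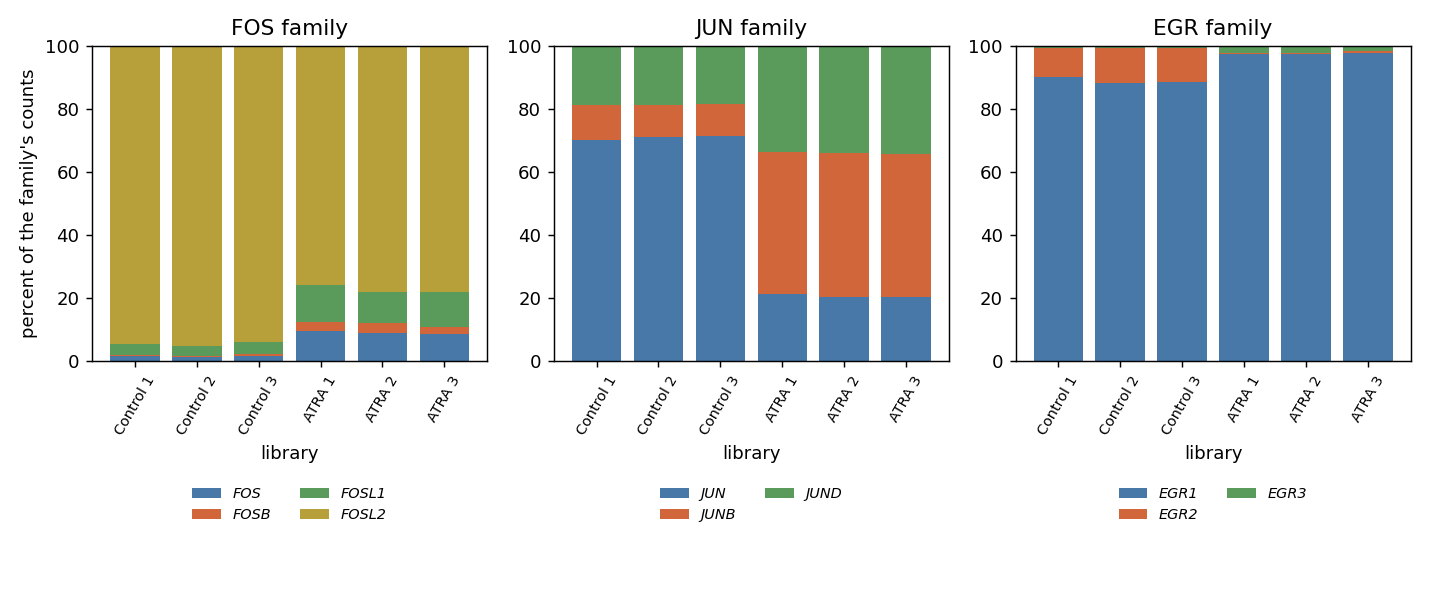
Share of each FOS, JUN and EGR gene in the counts of its family (percent, not corrected for transcript length), one stacked bar per library. The JUN share drops from 70.8% to 20.6% as JUNB and JUND grow, FOSL2 from 94.6% to 77.4%, and EGR2 from 10.4% to 0.356%, with little spread among the 3 libraries of a group.

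In the FOS family, FOSL2 carried most of the counts and most of the change. FOSL2, also called Fra-2, lacks the strong activation domains of FOS and FOSB. It had normalized CPM of 788, 783 and 818 in the control libraries and of 153, 168 and 158 in the ATRA libraries. The control libraries lay close together, and no ATRA library came near them. The mean fell from 796 ± 18.8 to 159.6 ± 7.59, a log₂FC of −2.32 (SE 0.0601, adjusted p = 6.90e-17), or 4.99-fold lower. FOSL1, or Fra-1, which likewise lacks those domains and is known from migrating and serum-stimulated cells, had 30.0, 26.8 and 33.6 in the control libraries and 23.6, 21.1 and 22.2 in the ATRA libraries. The groups did not overlap, although the lowest control library lay near the highest ATRA library. The mean went from 30.1 ± 3.40 to 22.3 ± 1.25, a log₂FC of −0.44 (SE 0.0876, adjusted p = 0.000185), which turned to 0.0425 (adjusted p = 0.657) with library size only, still below that scaling's median of 0.52 for all genes.

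FOS, the classical serum-induced member, had normalized CPM of 12.0, 10.5 and 13.4 in the control libraries and of 19.0, 19.0 and 17.1 in the ATRA libraries. All 3 ATRA libraries were higher than any control library. The mean rose from 12.0 ± 1.44 to 18.4 ± 1.10, a log₂FC of 0.62 (SE 0.0997, adjusted p = 1.77e-05), or 1.53-fold, and the log₂FC was 1.10 with library size only. FOSB, which is induced together with FOS and is known for its long-lived short isoform in neurons, had 3.13, 2.38 and 4.51 in the control libraries and 5.76, 6.73 and 4.86 in the ATRA libraries. Control replicate 3 came within a small margin of ATRA replicate 3, without overlap. The mean rose from 3.34 ± 1.08 to 5.78 ± 0.938, a log₂FC of 0.79 (SE 0.194, adjusted p = 0.00118). The call was lost with the unequal-variance test of R on log₂(CPM + 1), where the log₂FC was 0.66 (adjusted p = 0.0844), and the log₂FC was 1.27 with library size only. The gene counts do not separate the isoforms of FOSB.

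The summed normalized CPM of the FOS family fell from 842 ± 24.5 to 206 ± 7.39, 4.09-fold by TMM and 2.93-fold by library size only. The same exact permutation test, run on the TMM sums only, gave p = 0.1. FOSL2's share of the family's counts went from 94.6% ± 0.550 to 77.4% ± 1.28. FOS went from 1.42% ± 0.132 to 8.93% ± 0.508, FOSB from 0.395% ± 0.116 to 2.80% ± 0.376, and FOSL1 from 3.58% ± 0.304 to 10.8% ± 0.959. The shares did not overlap between groups for any of the 4 genes (exact permutation p = 0.1 each). Relative to FOSL2 in the same library, the log₂ ratio rose by 2.94 for FOS, by 3.15 for FOSB and by 1.89 for FOSL1, so all 3 gained on FOSL2 whatever the scaling. These shares are of counts and do not rank the 4 transcripts, whose lengths were not used.

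The EGR family held the gene with the greatest fold change of the 10. EGR2 had 424, 470 and 552 counts in the control libraries and 15, 17 and 24 counts in the ATRA libraries, or normalized CPM of 13.7, 14.5 and 17.2 against 0.347, 0.385 and 0.580. Every ATRA library was thus left with few counts. The mean fell from 15.1 ± 1.84 to 0.437 ± 0.12, a log₂FC of −5.11 (SE 0.182, adjusted p = 8.19e-15), or 34.5-fold lower, which lay beyond −2.83, the 5th percentile of log₂FC over all tested genes. EGR3, which in lymphocytes is often induced alongside EGR2, moved the other way. It had 33, 25 and 28 counts in the control libraries and 115, 118 and 84 in the ATRA libraries, or normalized CPM of 1.06, 0.773 and 0.872 against 2.66, 2.68 and 2.03. The groups did not overlap. The mean rose from 0.903 ± 0.148 to 2.46 ± 0.368, a log₂FC of 1.44 (SE 0.235, adjusted p = 1.92e-05), or 2.72-fold. On the log₂(CPM + 1) scale, which compresses such low levels, the log₂FC was 0.86 for EGR3 and −3.49 for EGR2.

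EGR1, the member that most mitogens induce, had normalized CPM of 134, 113 and 140.4 in the control libraries and of 122, 119 and 119 in the ATRA libraries. Control replicates 1 and 3 lay above every ATRA library and control replicate 2 lay below every one, so the groups overlapped. The means were 129 ± 14.1 and 120.2 ± 1.42, with a log₂FC of −0.10 (95% interval −0.25 to 0.04, SE 0.0692, adjusted p = 0.172). The sign depended on the scaling, since library size only gave a log₂FC of 0.37 (adjusted p = 0.000122), higher in the ATRA-treated group though below the 0.52 of the median gene. Without control replicate 2, the log₂FC was −0.20 (adjusted p = 0.00694), so that 1 library decided on which side of the threshold EGR1 fell.

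Within the family's counts, EGR1 went from 88.9% ± 1.04 to 97.7% ± 0.187, EGR2 from 10.4% ± 1.11 to 0.356% ± 0.105 and EGR3 from 0.622% ± 0.0844 to 1.99% ± 0.286 (exact permutation p = 0.1 each). In the control libraries EGR2 thus had more counts than EGR3, and in the ATRA libraries fewer. Relative to EGR1 in the same library, the log₂ ratio of EGR2 went from −3.10 ± 0.175 to −8.14 ± 0.403 and that of EGR3 from −7.17 ± 0.179 to −5.63 ± 0.220. The summed normalized CPM of the family was 145 ± 15.2 and 123 ± 1.54, a ratio of 0.847 by TMM that turned to 1.18 with library size only. The exact permutation test, run on the TMM sums only, gave p = 0.1. NAB1 and NAB2 encode corepressors that bind EGR proteins and hold back their activity, and NAB2 is itself a known EGR target. NAB1 fell from 82.2 ± 2.50 to 32.1 ± 2.24 normalized CPM (log₂FC −1.35, SE 0.0684, adjusted p = 1.66e-12), while NAB2 rose from 82.8 ± 1.81 to 113 ± 2.78 (log₂FC 0.45, SE 0.0566, adjusted p = 9.36e-07). Both directions held with library size only, at −0.88 and 0.92.

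**Figure D3:**
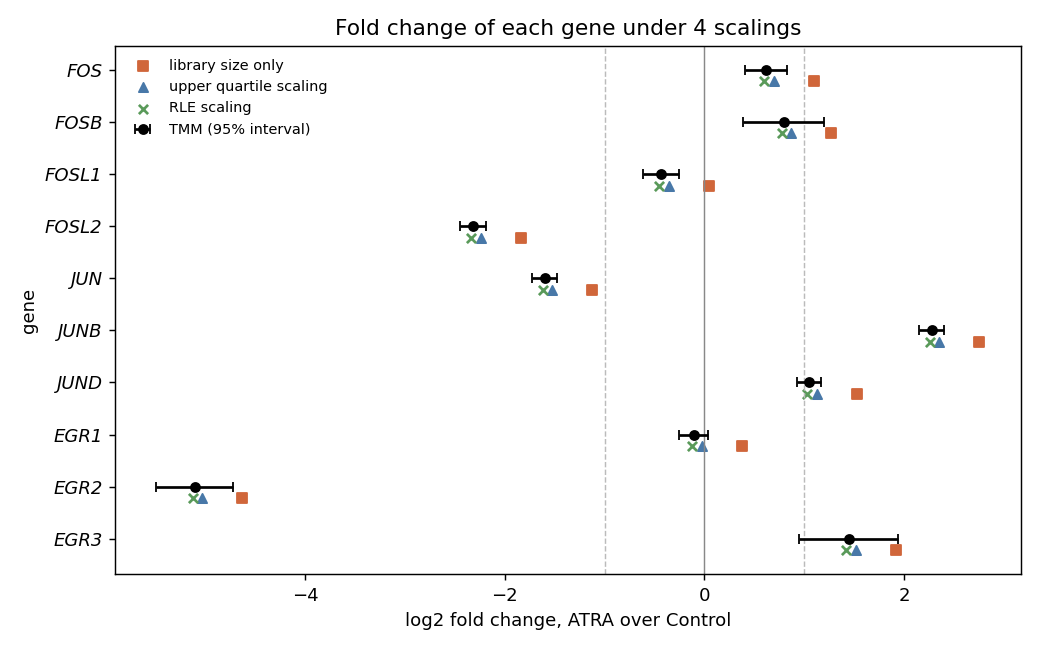
log₂FC (ATRA over control) of each gene under TMM with its 95% interval (black) and under 3 other scalings (coloured), with dashed lines at a log₂FC of 1 in either direction. Library size only lies to the right of TMM throughout, and EGR1 (−0.10 to 0.37) and FOSL1 (−0.44 to 0.0425) are the genes that cross 0.

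Within a group, the genes differed in how closely the 3 libraries matched. In the control group the coefficient of variation (CV) was 0.225% for JUN, 2.25% for JUND, 2.37% for FOSL2 and 4.52% for JUNB, below the 5.62% of the median gene with a mean of at least 1 normalized CPM in both groups. It was 10.9% for EGR1, 11.3% for FOSL1, 12.0% for FOS, 12.1% for EGR2, 16.4% for EGR3 and 32.4% for FOSB. Counting alone would give 1.56% for EGR1, 3.23% for FOSL1, 5.12% for FOS and 9.70% for FOSB, so for these 4 genes the observed CV was above that of counting. For EGR3 counting alone would give 18.7%, and no further spread was detectable. The 0.225% of JUN lay below the 0.769% that counting alone would give, so its spread there was not measurable at 3 libraries.

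Control replicate 3 was the highest control library for 6 of the 10 genes (FOS, FOSB, FOSL1, FOSL2, EGR1 and EGR2), and control replicate 2 was the lowest for 7 (FOS, FOSB, FOSL1, FOSL2, JUNB, EGR1 and EGR3). All 4 FOS family genes and EGR1 had this same order of the control libraries. In the ATRA-treated group the CV was 1.18% for EGR1, 5.59% for FOSL1, 6.0% for FOS and 16.2% for FOSB, and no library was the highest for more than 4 genes. For EGR2, with its 15 to 24 counts, the CV there was 28.5% where counting alone would give 23.1%.

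**Figure D4:**
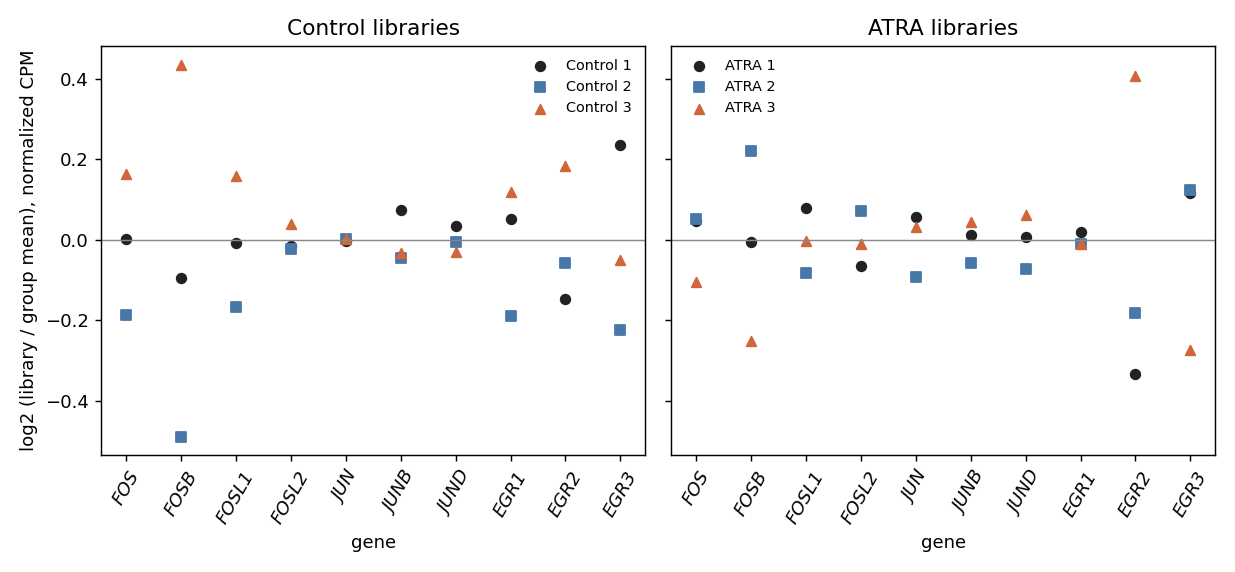
log₂ of each library's normalized CPM over its group mean for the 10 genes, control libraries on the left and ATRA libraries on the right. Control replicate 3 is highest and control replicate 2 lowest for all 4 FOS family genes and EGR1, and the JUN family points stay near 0.

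Of the other basic leucine zipper genes that can pair with FOS or JUN proteins or compete with them, 14 were listed, 13 were in the table and 11 were tested. Of the 11, 5 were higher by the |log₂FC| rule, 1 was lower and 5 did neither. Over all tested genes, 13.7% were higher and 17.3% lower by that rule. The list's median log₂FC was 0.93, and 1.41 with library size only. CREB5, which binds cAMP response elements, rose from 1.55 ± 0.0764 to 11.6 ± 1.01 normalized CPM (log₂FC 2.91). ATF3, a stress-induced partner of JUN proteins that is also an immediate early gene, rose from 12.2 ± 0.748 to 62.9 ± 2.12 (log₂FC 2.37). MAFF, a small MAF protein with no activation domain, rose from 27.0 ± 0.816 to 105 ± 6.66 (log₂FC 1.96). MAFG, another small MAF gene, named after its values were seen, rose from 67.3 ± 3.04 to 164 ± 6.96 (log₂FC 1.28). JDP2, a repressor that pairs with JUN, was the 1 gene lower, from 45.6 ± 3.03 to 8.32 ± 0.917 (log₂FC −2.45). The adjusted p-values of these 5 genes lay at or below 9.23e-13, and the same directions held with library size only for CREB5, ATF3, MAFF and JDP2.

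Among the 22 genes listed for the signalling that acts on FOS, JUN and EGR1, 8 passed an adjusted p under 0.05 as higher and 11 as lower. Over all tested genes these shares were 40.9% and 38.7%. By the |log₂FC| rule 1 was higher, 2 were lower and 19 did neither, against 13.7% higher and 17.3% lower over all tested genes. The list's median log₂FC of −0.15 turned to 0.33 with library size only. SRF, which binds the serum response elements of FOS and EGR1, fell from 93.8 ± 2.32 to 42.4 ± 1.04 normalized CPM (log₂FC −1.15, SE 0.0608, adjusted p = 3.52e-12). ELK3, an ETS-type partner of SRF, fell from 179 ± 5.26 to 77.4 ± 5.06 (log₂FC −1.21, SE 0.0609, adjusted p = 1.57e-12). With library size only both stayed lower, at −0.67 and −0.73, but neither passed the |log₂FC| rule. MAPK3, the kinase ERK1, fell from 121 ± 13.5 to 77.0 ± 3.91 (log₂FC −0.65, adjusted p = 1.80e-07), and its log₂FC was −0.17 with library size only. MAPK8, the kinase JNK1 that phosphorylates JUN, rose from 34.9 ± 2.18 to 62.0 ± 4.11 (log₂FC 0.83, adjusted p = 6.61e-09). MAPK9, the kinase JNK2, named after its values were seen, fell from 43.7 ± 2.14 to 26.2 ± 1.17 (log₂FC −0.74, adjusted p = 2.90e-08). The 1 gene higher by the rule was RPS6KA1, an ERK-activated kinase named after its values were seen, at 0.261 ± 0.0861 and 1.71 ± 0.180 normalized CPM (log₂FC 2.69). RNA levels of kinases do not measure their activity.

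All 30 other immediate early genes listed were tested. By the |log₂FC| rule, which called 13.7% of all tested genes higher and 17.3% lower, 11 were higher, 7 lower and 12 neither. Their log₂FC ranged from −3.29 to 4.12 with a median of 0.57, which was 1.05 with library size only. HBEGF, a growth factor of the EGF family, rose from 1.11 ± 0.133 to 19.3 ± 0.823 normalized CPM (log₂FC 4.12). SGK1, the serum- and glucocorticoid-regulated kinase, rose from 42.7 ± 1.00 to 286 ± 4.37 (log₂FC 2.75), and BTG2, an antiproliferative gene and p53 target, from 34.3 ± 1.04 to 178 ± 2.20 (log₂FC 2.37). On the other side, CTGF (CCN2), a matricellular protein, fell from 1249 ± 33.2 to 128 ± 6.37 (log₂FC −3.29). GADD45B, a stress sensor, fell from 47.5 ± 2.14 to 8.07 ± 0.164 (log₂FC −2.56), and KLF6, a zinc finger factor, from 203 ± 9.75 to 41.5 ± 0.818 (log₂FC −2.29). The list thus moved in both directions, as the 10 AP-1 and EGR genes did.

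Of 22 textbook AP-1 targets, 19 were in the table and 17 were tested. By the |log₂FC| rule, which called 13.7% of all tested genes higher and 17.3% lower, 7 were higher, 6 lower and 4 neither. Their median log₂FC was 0.36, and it was 0.56 without ATRA replicate 2, 0.26 without control replicate 1 and 0.83 with library size only. The neutrophil chemokine gene CXCL8 rose from 15.6 ± 1.12 to 223 ± 12.0 normalized CPM (log₂FC 3.84), HMOX1, the heme oxygenase, from 40.9 ± 1.78 to 473 ± 9.12 (log₂FC 3.53), and the cytokine gene IL6 from 15.0 ± 0.725 to 98.7 ± 4.02 (log₂FC 2.71). VIM, the intermediate filament gene that was also on the dermal papilla list, fell from 19158 ± 876 to 1595 ± 34.2 (log₂FC −3.59). SPP1, or osteopontin, fell from 247 ± 7.86 to 47.2 ± 2.66 (log₂FC −2.38). The adjusted p-values of these 5 genes lay at or below 8.37e-17.

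Of 15 textbook EGR targets, 12 were tested. By the |log₂FC| rule 3 were higher, 4 lower and 5 neither, against 13.7% higher and 17.3% lower over all tested genes. The median log₂FC of the 12 was −0.0021, and it turned to 0.0749 with upper quartile scaling and to 0.48 with library size only. FGF2, a fibroblast growth factor, rose from 2.70 ± 0.346 to 12.2 ± 1.00 normalized CPM (log₂FC 2.17), TGFB1, the TGF-β1 ligand, from 65.6 ± 5.58 to 285 ± 15.5 (log₂FC 2.12), and CDKN1A, the cell cycle inhibitor p21, from 155 ± 3.91 to 616 ± 13.0 (log₂FC 1.99). THBS1, which encodes the matrix glycoprotein thrombospondin-1, fell from 27106 ± 1202 to 371 ± 52.4 (log₂FC −6.19). F3, the tissue factor gene, fell from 52.7 ± 1.24 to 4.30 ± 0.283 (log₂FC −3.61), and FN1, or fibronectin, from 16702 ± 594 to 4451 ± 383 (log₂FC −1.91). The fourth lower gene, PDGFA, with a log₂FC of −1.02, is named after its values were seen. Whether any of these genes is bound by AP-1 or EGR proteins in these cells was not measured.

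**Figure D5:**
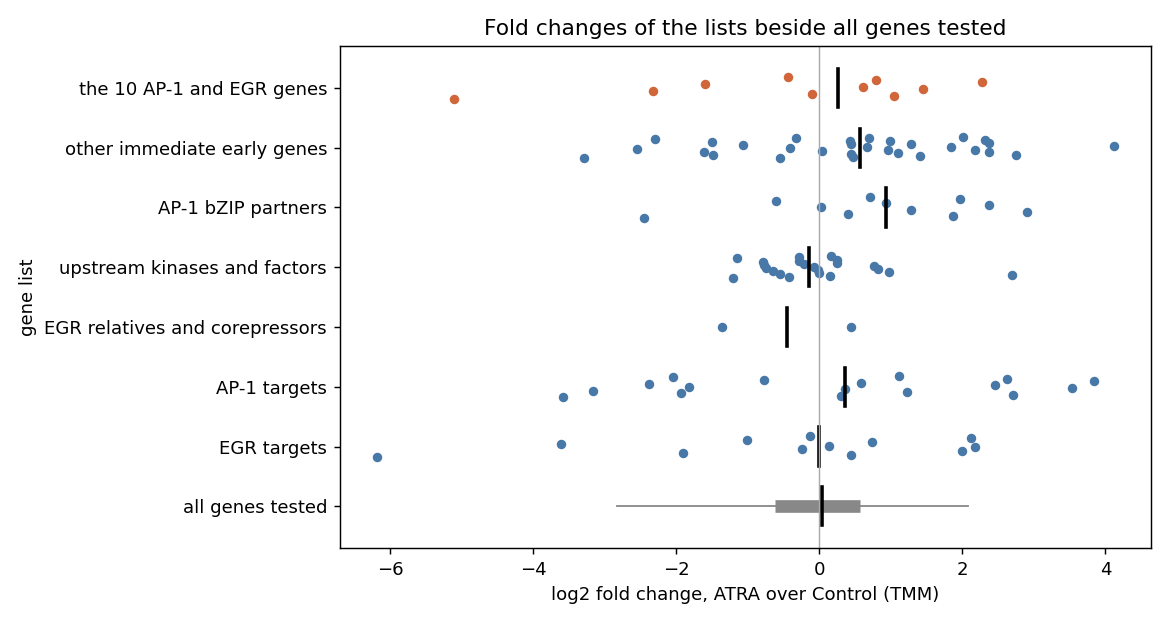
log₂FC (ATRA over control, TMM) of the 10 genes and of each tested gene on the 6 other lists, with a black bar at each median. The grey row gives all tested genes (box from −0.61 to 0.57 for the quartiles, line from −2.83 to 2.09 for the 5th and 95th percentiles), and every list but the EGR pair has points beyond 1 on both sides. With library size only, the medians of the upstream, EGR relative and EGR target lists turn from below to above 0.

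The deposited annotation placed all 7 FOS and JUN genes in the KEGG pathway for osteoclast differentiation, which had 79 tested genes. It placed 5 of them (FOS, FOSB, FOSL1, JUN and JUND) in IL-17 signalling, which had 62, and 3 (FOS, JUN and JUND) in MAPK signalling, which had 225. Pathway membership was read from the table and no enrichment was tested.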

How the data were processed

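The authors captured mRNA with oligo(dT) beads, trimmed reads with fastp and TrimGalore (v0.6.6) and deposited whole-number read counts per gene with GO and KEGG annotation, not normalized. The submitters' processing notes also name HISAT2, featureCounts and DESeq2. The genome build and strand setting are not given in the sources used here. All per-sample columns were used, and all 15944 gene names matched the ARS1.2 gene table, from which no coordinates are given.

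Genes passing edgeR's expression filter (12588) entered edgeR's quasi-likelihood F test after TMM scaling (robust, two-sided, 6 libraries, no covariate), with Benjamini-Hochberg adjustment. The log₂FC used a prior count of 0.125, and its SE was |log₂FC| over the square root of F. Shares of family counts were compared by exact permutation tests. Since the files hold counts, the t.test function of R that the study used served only as an alternative, beside DESeq2, other scalings, filters and thresholds, a replicate block and leaving out each library. The edgeR, DESeq2 and t tests, but not the permutation tests, were first run on simulated counts. Far fewer genes changed there than in these data, so that run did not probe the choice of scaling.

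The 10 genes, the 6 other lists and the marker lists were chosen with earlier results of these data known. From each list, the called genes of largest |log₂FC| with a mean of at least 1 normalized CPM are named, up to 3 higher and 3 lower, as are ATF3, NAB1, NAB2, SRF, MAPK3, MAPK8 and RARB. Some genes that this rule covers are not reported here. No pair of libraries within a group agreed within sampling noise (chi-square per degree of freedom of 5.16 to 19.2). Errors cover the spread among 3 cultures per group, and counting CVs cover counting error only. Software was edgeR 4.0.16, DESeq2 1.42.0 and limma 3.58.1 in R 4.3.3, with matplotlib 3.10.9 for plots.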

Additional observations from a re-analysis of the deposited data

How the results depend on the processing

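With library size only, 7921 of all tested genes passed an adjusted p under 0.05 as higher and 2861 as lower (5151 and 4877 with TMM), and 3390 rather than 1730 were higher and 1471 rather than 2174 lower by the |log₂FC| rule. Under it FOSL1 turned to a log₂FC of 0.0425 and EGR1 to 0.37, and by the |log₂FC| rule 5 of the 10 AP-1 and EGR genes and 4 of the upstream genes were higher, while 0 upstream genes and 0 EGR relatives were lower. Upper quartile scaling gave 2 higher upstream genes rather than 1, and so did leaving out control replicate 1 or ATRA replicate 3 (range 1 to 2 over the libraries left out). R's t.test function on log₂(CPM + 1) called 1093 genes higher by the |log₂FC| rule. A |log₂FC| above 2 left 669 genes higher and 1035 lower, and 1 of the 10 genes higher, JUNB. At an adjusted p under 0.05, EGR1 gained a call as lower without control replicate 2 and as higher with library size only. FOSB lost its call with t.test. The other 8 of the 10 genes kept direction and call under the alternatives run, except FOSL1 with library size only. By the |log₂FC| rule, EGR3 lost its call with t.test, where 2 of the 10 genes were higher. SRF, ELK3 and NAB1 stayed lower with library size only but no longer passed the |log₂FC| rule. The alternatives were not examined gene by gene for LEF1, MAFG, MAPK9, RPS6KA1, PDGFA and the NR4A genes. The causes of these changes were not tested beyond the shift in scaling. Deviations from the group means gave no clear pairing by replicate number (correlations of 0.215, −0.0161 and −0.181 over 11548 genes for replicates 1, 2 and 3). Control replicate 3 and ATRA replicate 2 had 0.280. With 3 libraries per group the deviations are tied to each other by the group mean, so they cannot decide whether the groups share animals. The fit with the replicate block called 5123 genes higher and 4869 lower, with 5 of the 10 genes higher and 4 lower as without it. Low counts limit EGR2 in the ATRA-treated group and EGR3 in the control group.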

Other observations

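The NR4A nuclear receptors, a further family of immediate early transcription factors, were picked once their values were known. NR4A1 had normalized CPM of 25.1, 24 and 23.3 in the control libraries and of 50.6, 50.9 and 53.0 in the ATRA libraries (log₂FC 1.09, SE 0.0696, edgeR adjusted p = 5.54e-11). NR4A2 had 32.6, 29.6 and 32.1 in the control libraries and 59.97, 65.1 and 58.1 in the ATRA libraries (log₂FC 0.96, SE 0.0715, adjusted p = 5.86e-10). NR4A3 had 4.28, 4.11 and 4.83 in the control libraries and 20.1, 21.6 and 17.9 in the ATRA libraries (log₂FC 2.17, SE 0.112, adjusted p = 2.16e-12). All 3 were thus higher in every ATRA library than in any control library. Over all tested genes, 80.1% showed no overlap in one direction or the other, and 40.9% passed an adjusted p under 0.05 as higher.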
